A study of Mus musculus with 352 samples.

Results

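Endothelial and mural cell genes of skeletal muscle, a list of 36 genes, were followed through all 15 groups of a study of the tibialis anterior muscle of the mouse shin. The members were picked by gene symbol as markers of the vessel wall, 29 of the endothelium and 7 of the mural cells around it, and all 36 were found by Ensembl identifier among the 14413 genes of the deposited table. A mean of at least 0 on the log2 FPKM scale (fragments per kilobase of transcript and per mega-fragment mapped, where a log2 of 0 is 1 FPKM) over all libraries was passed by 35 of them and by 9862 genes in all. Cspg4, which encodes the NG2 proteoglycan of pericytes, missed it with a mean of -0.02 and entered no count, so that counts below are out of 35 members, 29 endothelial and 6 mural.

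Skeletal muscle is fed by a dense bed of capillaries, in which a single layer of endothelial cells lines the tube and pericytes lie around it, while arterioles carry a coat of smooth muscle. Endothelial cells are held together by VE-cadherin, claudin-5 and other adhesion proteins, are kept alive and growing by VEGF and angiopoietin receptors, and hand lipids, water and gases to the fibres. BMAL1 (gene Arntl) is a core activator of the circadian clock and is active in vessel wall cells as well as in muscle fibres, so a body-wide loss removes it from both.

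The study has 352 libraries, 1 per C57BL/6 mouse of either sex, sampled at 6 times of day, 4 h apart, with 3 to 5 mice per group and time. Zeitgeber time (ZT) counts hours from lights on. Wild-type mice (WT) were compared with Bmal1(stopFL/stopFL), Cre(-/-) mice, in which a stop cassette blocks the gene in the whole body (KO). Bmal1(stopFL/stopFL), Hsa-Cre(-/tg) mice regain it where the skeletal actin promoter is active, in muscle fibres (Mu-RE). The same allele with Syt10-Cre(-/tg), a brain driver, gives the Br-RE mice, and mice with both Hsa-Cre(-/tg) and Syt10-Cre(-/tg) are called RE-RE. Free access to food (ad libitum, ALF) was given at 10 to 12 weeks of age, called 10 weeks here, to 23 WT, 23 KO and 25 Mu-RE animals, and also to 23 with the Br-RE and 24 with the RE-RE genotype. The ALF groups of 26 weeks hold 22 WT, 24 KO and 24 Mu-RE animals, besides 22 with the Br-RE and 24 with the RE-RE genotype. Time-restricted feeding (TRF) at that age covers 24 WT, 23 KO and 23 Mu-RE animals. A further 24 wild types aged 85 to 116 weeks, called old, ate ALF and another 24 TRF. The hours of food access are not given in the labels. Groups with no feeding named were on ALF.

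Depth read from the steps between low values was 14.7 to 47.2 M reads per library (median 22.5, in M, the SI mega), at which 1 FPKM of a transcript of the members' median length is about 93.1 reads. Dbp, a direct clock target, stayed at or below 1.19 log2 FPKM in each KO and Br-RE library, while its medians were 3.01 or higher in all other groups, so the genotype labels held for the muscle clock. Libraries differed in how strongly their values depended on the GC content of the transcript. This GC slope ran from -0.63 to 0.61 (log2 per 10 percentage points of GC, relative to the average library). The members had a median GC content of 53.1%, against 49.8% for all genes kept, so the slope is given beside the results it moves with. Means of the sexes were equal in every gene within sets of libraries, and Br-RE and RE-RE formed sets of their own. The sexes were therefore not compared, and levels in Br-RE and RE-RE were compared only with each other. For Dbp too, Br-RE is to be read against RE-RE, and KO against the groups other than these.

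The vessel wall was well represented in these muscles. Averaged over all libraries, the water channel gene Aqp1 stood highest at 113 FPKM, followed by the pericyte regulator Rgs5 at 80.9, the caveolar coat gene Cav1 at 47.6, the smooth muscle actin gene Acta2 at 24.2 and the VE-cadherin gene Cdh5 at 19.5 FPKM. The lowest member kept was Vwf, the clotting factor carrier of larger vessels, at 1.13 FPKM. Of 5 markers of lymphatic endothelium, 3 were in the table and none reached a mean of 1 FPKM, and their summed level had a median between 1.38 and 2.66 FPKM in each of the 15 groups, against 259 to 419 FPKM for the 29 endothelial members.

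Within groups, the members rose and fell together from mouse to mouse. After the mean of each group and time point was taken out, the median Pearson r over the 406 endothelial pairs was 0.50 across 259 libraries, it was 0.54 over the 15 mural pairs and 0.41 over the 174 mixed pairs, while all other kept genes had a median r of -0.04 with the endothelial mean. Tie1, Mmrn2 and Cdh5 followed the other endothelial members most closely (r of 0.92, 0.90 and 0.89), and Emcn, Rgs5 and Gpihbp1 least (0.22, 0.26 and 0.31). Within the mural list the contractile genes Acta2 and Myh11 varied together (r of 0.83), as did the receptors Pdgfrb and Notch3 (0.82), whereas Rgs5 followed Acta2 weakly (0.21). These points share library preparation and GC slope. With the GC slope of each library removed the endothelial pairs had a median r of 0.39. Tie1, Mmrn2 and Cdh5 then still followed the other endothelial members most closely (0.86, 0.81 and 0.81). Gpihbp1 (0.17) and Cldn5 (0.24) followed them least, while Rgs5 was at 0.59 and Emcn at 0.41.

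The genes outside the list that varied most like the endothelial mean were Ehd2, Elk3, Arap3, Fgd5, Sdc3, Npr1, Bcam, Cd300lg, Arhgef15 and Itpkb, with r from 0.92 for Ehd2 to 0.86 for Itpkb over the same 259 libraries. With the GC slope removed, Ehd2 still ranked first at 0.85, Elk3, Arap3 and Fgd5 stayed among the first 10, and Kitl, She, Itga6, Jcad, Cd93 and Tmod3 joined them.

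Since the members varied together, the upstream sequences of 4 of them are shown, each the 250 bases before a RefSeq transcription start on GRCm38.p6, written 5′ to 3′ on the strand of the gene. The 4 are Tie1 (chr4:118489850-118490099, minus strand), the member closest to the others, Kdr (chr5:75978456-75978705, minus strand) and Cldn5 (chr16:18776597-18776846, plus strand), which led the genotype comparisons, and Acta2 (chr19:34255374-34255623, minus strand) from the mural list. Capitals mark GGAA, the core bound by ETS factors such as ERG and ETS1, or its reverse complement TTCC.
Tie1: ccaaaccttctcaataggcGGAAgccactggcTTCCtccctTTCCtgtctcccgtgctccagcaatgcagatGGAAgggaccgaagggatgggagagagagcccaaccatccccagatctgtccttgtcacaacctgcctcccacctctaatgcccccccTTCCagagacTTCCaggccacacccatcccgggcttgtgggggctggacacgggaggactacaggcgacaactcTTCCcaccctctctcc
Kdr: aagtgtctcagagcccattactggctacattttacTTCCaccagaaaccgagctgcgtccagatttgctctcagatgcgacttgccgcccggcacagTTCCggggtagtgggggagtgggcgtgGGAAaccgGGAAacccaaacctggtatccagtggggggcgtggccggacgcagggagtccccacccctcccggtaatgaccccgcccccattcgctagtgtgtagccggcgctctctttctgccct
Cldn5: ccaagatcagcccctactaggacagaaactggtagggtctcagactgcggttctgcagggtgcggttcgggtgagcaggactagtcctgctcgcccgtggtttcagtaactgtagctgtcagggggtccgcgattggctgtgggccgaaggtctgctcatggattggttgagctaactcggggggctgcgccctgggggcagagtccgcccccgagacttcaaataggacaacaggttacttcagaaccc
Acta2: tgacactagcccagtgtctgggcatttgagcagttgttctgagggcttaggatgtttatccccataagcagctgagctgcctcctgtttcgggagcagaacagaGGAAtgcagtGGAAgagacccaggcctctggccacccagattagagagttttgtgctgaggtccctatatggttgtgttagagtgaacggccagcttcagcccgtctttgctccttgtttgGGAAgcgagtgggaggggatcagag

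Tie1 held 7 such cores, Kdr 4, Acta2 3 and Cldn5 0. Over the 23 promoters of the 18 members with an entry, 20 held GGAA on either strand (87.0%), beside 93.4% of all 32851 promoters. The longer GGAAG was in 14 of 23 (60.9%) beside 64.1%. The E-box CACGTG, the site that BMAL1 and CLOCK bind, was in 0 of 23 beside 6.02%. A match is a run of letters in this window and not evidence of binding.

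The level of the members depended on genotype, age and feeding. Among the 11 groups that can be set on a common scale, 25 of the 29 endothelial members had their highest mean in KO mice of 10 weeks, and their lowest mean fell in WT mice of 26 weeks for 13 and in old mice on ALF for another 13. At 10 weeks the mean over the endothelial members was 2.60 ± 0.23 log2 FPKM in the 23 WT libraries and 2.96 ± 0.20 in the 23 KO libraries (mean ± SD over libraries). At 26 weeks it was 2.21 ± 0.33 in the 22 WT and 2.75 ± 0.28 in the 24 KO libraries. The mean over the mural members was 3.69 ± 0.30 in WT and 3.71 ± 0.26 in KO libraries at 10 weeks, and 3.23 ± 0.39 and 3.46 ± 0.36 at 26 weeks. In whole muscle, more cells of a type and more RNA per cell cannot be told apart.

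Loss of Bmal1 at 10 weeks went with higher endothelial transcripts, and most of all with higher Cldn5 and Plvap. Of 35 members 22 were higher in KO than in WT mice, 20 endothelial and 2 mural, and 1 was lower (limma, Benjamini-Hochberg adjusted p under 0.05). In this comparison 41.8% of all genes tested were called, 20.3% as higher and 21.6% as lower. The median difference of the members was 0.29 (log2), and that of all genes was -0.0018. By role, all 6 junction and adhesion genes rose, as did all 4 transcription factor genes and 3 of 6 genes of exchange and vascular tone. In the class of growth factor and guidance receptors, which also holds the secreted factor gene Egfl7, 6 of 8 genes rose. Of the other 5 endothelial genes 1 rose.

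Cldn5, the main claudin of endothelial tight junctions, ran from 1.15 over a median of 2.84 to 3.76 log2 FPKM in WT mice and from 3.26 over 3.68 to 4.96 in KO mice. All 23 KO libraries lay above the WT median and 10 lay above every WT library. The difference was 1.21 ± 0.13 (log2, SE), a 2.32-fold rise (limma, adjusted p = 2.17e-10). Plvap, which forms the diaphragms of caveolae and fenestrae, spanned 2.39, 2.96 and 3.36 (lowest, median, highest) in WT and 3.03, 3.72 and 4.31 in KO mice. With 19 of 23 KO libraries above every WT library, the groups barely overlapped, and the difference was 0.85 ± 0.09 (1.80-fold, adjusted p = 1.49e-10). Icam2, an adhesion molecule of resting endothelium, spanned 1.07, 1.55 and 1.98 in WT and 1.76, 2.08 and 3.07 in KO mice. All KO libraries were above the WT median, 15 of them above every WT library, and the difference was 0.64 ± 0.08 (adjusted p = 2.09e-08).

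Other endothelial genes rose less and overlapped more. Cdh5 spanned 3.74, 4.35 and 4.87 in WT and 4.18, 4.94 and 5.24 in KO mice, a rise of 0.54 ± 0.09 (adjusted p = 2.31e-06) with 20 of 23 KO libraries above the WT median. Mmrn2, a matrix protein bound by CLEC14A and CD93, rose by 0.48 ± 0.08 (adjusted p = 1.44e-06), again with all 23 KO libraries above the WT median. Among the receptors, Robo4, a guidance receptor that steadies the barrier, rose by 0.57 ± 0.11 and Kdr, the VEGF receptor VEGFR2, by 0.51 ± 0.12 (adjusted p = 3.39e-05 and 0.000926). The transcription factor gene Sox18 rose by 0.56 ± 0.13 (adjusted p = 0.000521) and Gpihbp1, which carries lipoprotein lipase to the capillary lumen, by 0.39 ± 0.10 (adjusted p = 0.0011). Pecam1, the pan-endothelial adhesion gene, rose by only 0.24 ± 0.07 (1.18-fold, adjusted p = 0.00716). The genes of this class that did not pass were Ramp2, Emcn, Clec14a, Tek, Ecscr, Flt1, Cav1, Vwf and Aqp1, with differences from -0.03 to 0.22.

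The mural genes did not move as a class at 10 weeks. Pdgfrb, the receptor through which pericytes are recruited, rose by 0.35 ± 0.08 (named, like Tagln below, after its value was seen), and Rgs5 rose by 0.16 ± 0.06 (limma, adjusted p = 0.0288). Acta2 spanned 3.99, 4.78 and 5.68 in WT and 4.02, 4.57 and 5.44 in KO mice, a difference of -0.15 ± 0.15 (adjusted p = 0.436). Tagln, a contractile smooth muscle gene and the only member that fell, was lower by 0.44 ± 0.12 (adjusted p = 0.00287), with 21 of 23 KO libraries below the WT median. Cspg4, fitted without the low-value filter, differed by -0.18 ± 0.11 (adjusted p = 0.199).

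**Figure D1:**
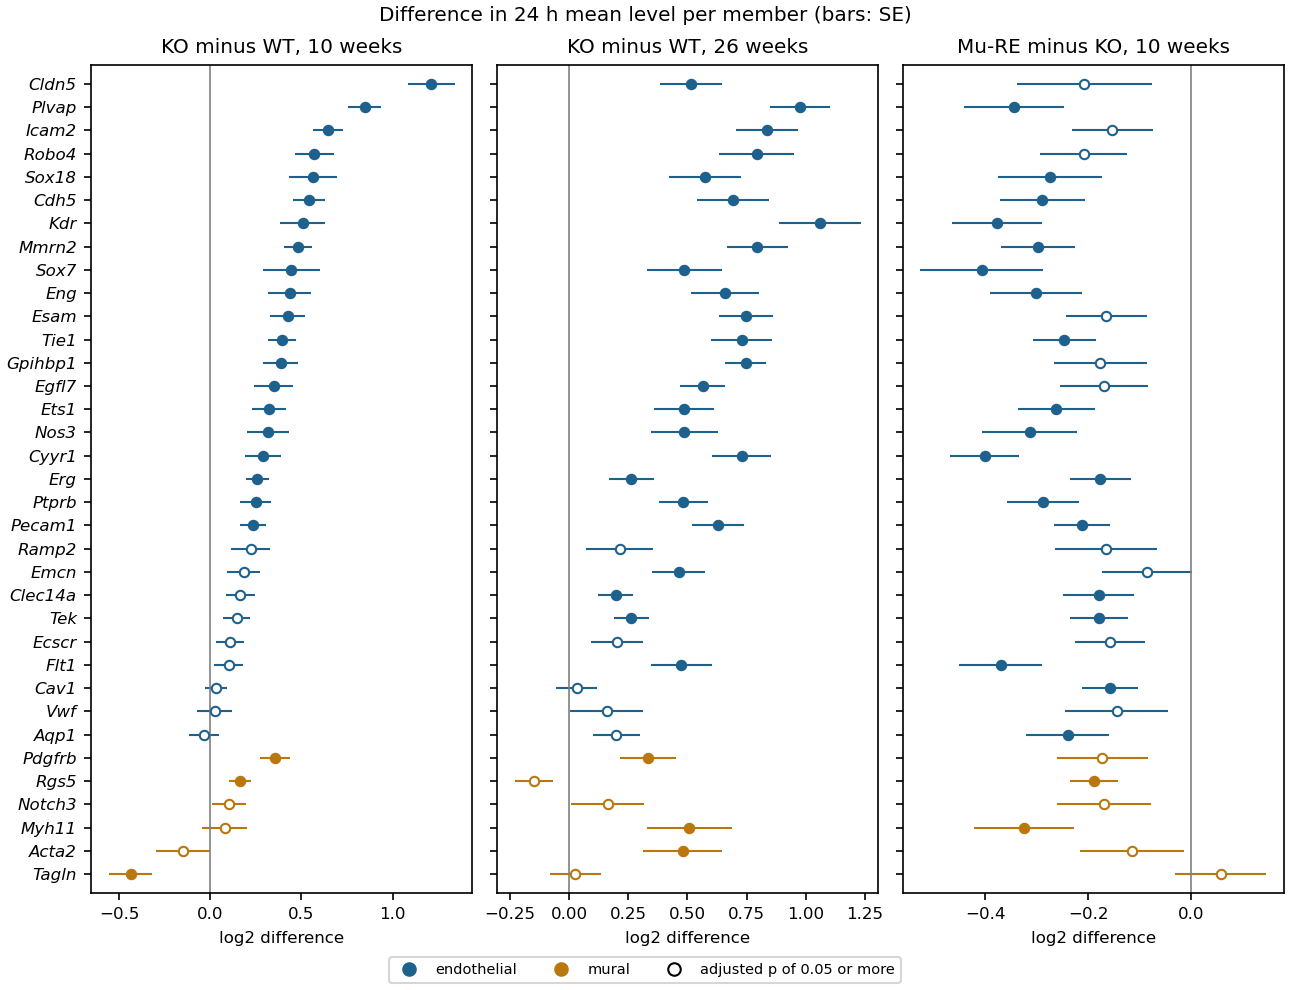
Difference in the 24 h mean level of each of the 35 members (x axes, log2, bars show SE) for KO minus WT mice at 10 and at 26 weeks and for Mu-RE minus KO mice at 10 weeks, with endothelial genes in blue, mural genes in orange and open points where the adjusted p was 0.05 or more. Filled points lie right of 0 in both KO panels, with Tagln at 10 weeks as the exception, and left of 0 in the Mu-RE panel.

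At 26 weeks the same contrast held and more members passed. Here 27 members were higher in KO than in WT mice, 24 endothelial and 3 mural, and none was lower, beside 46.3% of all genes called, 24.4% as higher and 22% as lower. The median difference was 0.49 over the members and 0.0035 over all genes. The mice of the 2 ages are different animals, and 21 genes were called higher at both ages, which is 95.5% of those at 10 weeks and 77.8% of those at 26 weeks. All 6 junction and adhesion genes, all 8 genes of the receptor class (with Egfl7) and all 4 transcription factor genes rose. So did 3 of 6 exchange genes and 3 of the other 5.

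Kdr now led the list. It spanned 0.70, 2.03 and 3.15 in WT and 1.43, 3.39 and 3.94 in KO mice, with 15 of 24 KO libraries above every WT library. The difference was 1.06 ± 0.17, or 2.08-fold (limma, adjusted p = 2.42e-06). Plvap followed with WT values of 1.59, 2.50 and 3.46 and KO values of 2.66, 3.46 and 4.48, a difference of 0.98 ± 0.13 (adjusted p = 2.66e-08), and all 24 KO libraries lay above the WT median. Gpihbp1 spanned 2.74, 3.17 and 3.83 in WT and 3.42, 3.98 and 4.68 in KO mice, a rise of 0.75 ± 0.09 (adjusted p = 1.57e-09) that put 15 of 24 KO libraries above every WT library. Icam2 rose by 0.84 ± 0.13, Mmrn2 by 0.80 ± 0.13, Robo4 by 0.79 ± 0.16, the adhesion gene Esam by 0.75 ± 0.12 and the membrane protein gene Cyyr1 by 0.73 ± 0.12, each with 23 of 24 KO libraries above the WT median. Cdh5 rose by 0.69 ± 0.15 and Pecam1 by 0.63 ± 0.11 (adjusted p = 0.000216 and 7.70e-06). Acta2 rose at this age, by 0.48 ± 0.17 (adjusted p = 0.0159), and Rgs5 differed by -0.15 ± 0.08 (adjusted p = 0.135).

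The effect of the knockout differed between the ages for 6 members (limma, contrast of the differences, beside 18.8% of all genes called, 10.6% upward and 8.17% downward). The effect was smaller at 26 weeks for Cldn5, by -0.69 ± 0.19 (adjusted p = 0.0043), and for Rgs5, which was higher in KO mice at 10 weeks and differed by -0.15 at 26 weeks (-0.32 ± 0.10). It was more positive at 26 weeks for Acta2 (0.63 ± 0.22), Tagln (0.46 ± 0.16), Pecam1 (0.39 ± 0.13) and Gpihbp1 (0.36 ± 0.13), with adjusted p from 0.0244 to 0.0414 for these and Rgs5. Kdr, which led at 26 weeks, was not called here (0.55 ± 0.22, adjusted p = 0.0618). With the mice of 1 number left out, 0 to 3 members were called. Here and below, such a number is a mouse's place in label order within its group and time point. Leaving it out took up to 1 mouse from every time point of each group.

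Markers of other cell types also differed between the genotypes, some in the direction of the endothelium and some in the other. All 6 macrophage and lymphoid markers kept were lower in KO mice at 10 weeks, with a median difference of -1.07, and 5 of 6 at 26 weeks. Of 7 fibroblast markers 4 were lower at 10 and 5 at 26 weeks, and of 5 myofibre markers 4 were higher at 10 and 2 at 26 weeks. Both satellite cell markers kept were higher at 10 weeks and 1 at 26 weeks, and the summed level of the 4 in the table ran from 11.8 to 24.9 FPKM (median 16.8) in WT and from 17.9 to 30.8 (median 22.6) in KO mice at 10 weeks. At 26 weeks these sums had medians of 15.6 and 22.9. Of 3 Schwann cell and nerve markers 1 was higher at each age, and of 4 tendon markers none was called. Summed levels overlapped between the genotypes at 10 weeks for the endothelial members (272 to 451 FPKM, median 361, in WT and 269 to 512, median 419, in KO mice) and for the 11 macrophage and lymphoid markers in the table (30.1 to 93.8, median 54.7, in WT and 13.4 to 54.2, median 30.5, in KO mice). Aqp1 and Cav1 weigh most in the endothelial sum (113 and 47.6 FPKM over all libraries), and neither was called at 10 weeks. Red blood cell markers, 5 in all, gave no call at either age. The part of cell makeup in the level differences was not tested. With the GC slope as a covariate, 18 of the 23 calls at 10 weeks remained and 20 of the 27 at 26 weeks. The slope averaged 0.00 in KO mice at both ages, and -0.04 and -0.09 in WT mice at 10 and 26 weeks.

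**Figure D2:**
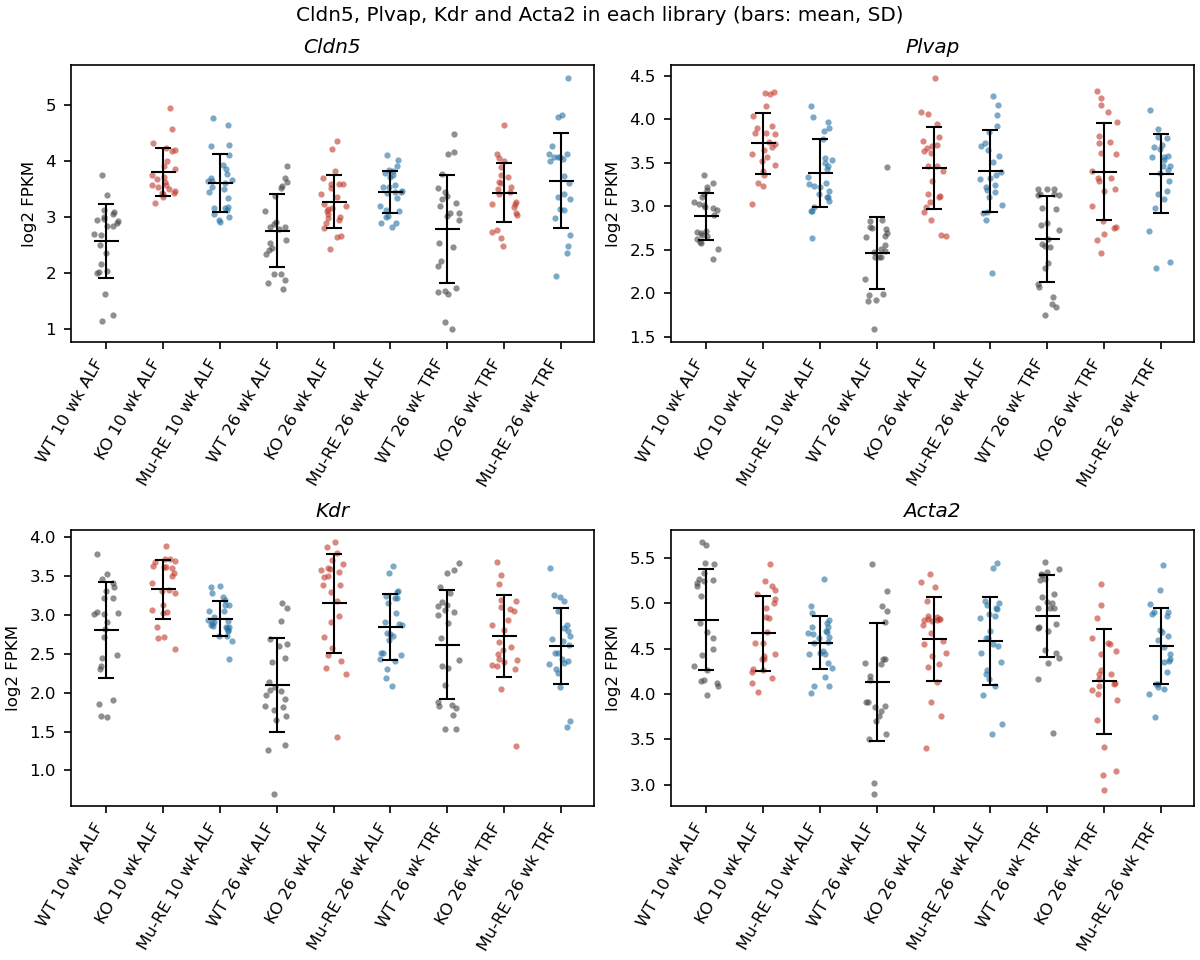
Level of Cldn5, Plvap, Kdr and Acta2 (y axes, log2 FPKM) in each library of the WT, KO and Mu-RE groups at 10 weeks on ALF and at 26 weeks on ALF and TRF, with the mean and SD of each group in black. KO libraries of 10 weeks sit high for Cldn5 (3.26 to 4.96) and Plvap (3.03 to 4.31) against WT libraries (1.15 to 3.76 and 2.39 to 3.36), and the WT libraries of 26 weeks on ALF are the low group for Kdr and Plvap.

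Endothelial genes were lower in mice with Bmal1 in muscle fibres than in full KO mice at 10 weeks. Of 35 members 21 were lower in Mu-RE than in KO mice, 19 endothelial and 2 mural, and none was higher, beside 34.6% of all genes called, 17.2% as lower and 17.4% as higher. The median difference was -0.21, against -0.00082 over all genes. This comparison shares its KO mice with the one above, so the values are given side by side and not as a second test of the same genes. The transcription factor genes fell in 4 of 4 cases, the receptor class in 6 of 8 and the exchange genes in 4 of 6. The junction genes fell in 3 of 6 cases and the other endothelial genes in 2 of 5.

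Kdr spanned 2.44, 2.91 and 3.38 in Mu-RE mice, and all 25 of these libraries lay below the KO median of 3.41. The difference was -0.38 ± 0.09 (limma, adjusted p = 0.00064). Sox7, a partner of SOX18, differed by -0.41 ± 0.12 and Cyyr1 by -0.40 ± 0.07, and Flt1, the decoy VEGF receptor, by -0.37 ± 0.08. Each of these genes had 24 of 25 Mu-RE libraries below the KO median. Plvap, with 2.63, 3.27 and 4.15 in Mu-RE mice, fell by 0.34 ± 0.10 (adjusted p = 0.00436), and the endothelial nitric oxide synthase gene Nos3 and the TGF-beta co-receptor gene Eng fell by 0.31 ± 0.09 and 0.30 ± 0.09. Smaller falls were those of Cdh5 (0.29 ± 0.08), Pecam1 (0.21 ± 0.06) and Rgs5 (0.19 ± 0.05), and the smooth muscle myosin gene Myh11 fell by 0.32 ± 0.10. Gpihbp1 and Acta2 differed by -0.18 ± 0.09 and -0.11 ± 0.10 (adjusted p = 0.132 and 0.421). None of the macrophage, lymphoid or fibroblast markers was called in this comparison, and 3 of 5 myofibre markers were lower. The count was 8 without the mice numbered 3 at each time point of both groups and 9 without those numbered 2.

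At 26 weeks Mu-RE and KO mice differed in 3 members. Sox7 (-0.42 ± 0.13), Icam2 (-0.30 ± 0.10) and Gpihbp1 (-0.23 ± 0.09) were lower in Mu-RE mice (limma, adjusted p = 0.0102, 0.0167 and 0.0356), beside 33.9% of all genes called, 16.6% as lower. Kdr differed by -0.32 ± 0.16 and Cdh5 by -0.25 ± 0.13 (adjusted p = 0.109 and 0.131), Pecam1 by -0.12 ± 0.09, Acta2 by -0.04 ± 0.13 and Rgs5 by -0.03 ± 0.08. The median over the members was -0.15. Whether the effect of muscle Bmal1 differed between the ages was not tested. With a covariate for each library's dependence on transcript length 12 members were called. No member was called without the mice numbered 1 or without those numbered 2, and 9 were called without those numbered 4.

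RE-RE and Br-RE mice, which differ in muscle Bmal1, differed in 6 members at 10 weeks, and 3 of the 6 mural genes were among them. Acta2 was higher in RE-RE than in Br-RE mice, with 4.25, 5.03 and 5.48 against 3.02, 4.46 and 5.25, and 22 of 24 RE-RE libraries lay above the Br-RE median. The difference was 0.55 ± 0.12 (limma, adjusted p = 0.00026). Tagln was higher by 0.41 ± 0.09 and Myh11 by 0.32 ± 0.12, Vwf by 0.30 ± 0.11 and Tek, the angiopoietin receptor gene, by 0.18 ± 0.07, and Gpihbp1 was lower by 0.26 ± 0.10. These 5 higher and 1 lower members stand beside 32.2% of all genes called, 14.8% as higher and 17.4% as lower. Kdr (0.09 ± 0.14), Cdh5 (-0.03 ± 0.17), Pecam1 (0.13 ± 0.09) and Rgs5 (-0.02 ± 0.06) were not called. The count went to 3 with no filter on low values or with the length covariate, to 10 with the GC covariate, to 2 without the mice numbered 2 or those numbered 4, and to 3 without those numbered 3.

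At 26 weeks 4 members differed between RE-RE and Br-RE mice, beside 35.3% of all genes called, 16.5% as higher and 18.9% as lower. Sox7 was lower by 0.42 ± 0.14, Sox18 by 0.38 ± 0.15 and Aqp1 by 0.31 ± 0.10, and Tagln was higher by 0.21 ± 0.07 with 22 of 24 RE-RE libraries above the Br-RE median (limma, adjusted p = 0.021, 0.0474, 0.0154 and 0.018). Acta2 differed by 0.13 ± 0.11, Cdh5 by -0.30 ± 0.15, Kdr by -0.20 ± 0.18, Pecam1 by -0.16 ± 0.10, Gpihbp1 by -0.11 ± 0.10 and Rgs5 by 0.02 ± 0.09. None of these was called. Tagln was thus the member called higher at both ages. No member was called without the mice numbered 1, without those numbered 2 the count was 2, and without those numbered 4 it was 1.

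Between 10 and 26 weeks the vascular genes of WT mice fell across nearly every role. Of 35 members 29 were lower at 26 weeks, 24 endothelial and 5 mural, and none was higher, beside 37% of all genes called, 16.1% as lower and 20.9% as higher. The median difference was -0.45 for the members and 0.013 for all genes. The receptor class, with Egfl7, fell in 8 of 8 cases, the junction genes in 5 of 6 and the mural genes in 5 of 6. The other endothelial genes fell in 4 of 5 cases, the exchange genes in 4 of 6 and the transcription factor genes in 3 of 4. The WT mice of both ages are those of the knockout contrasts, so these comparisons are not independent.

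Kdr fell from a median of 3.01 (1.69 to 3.79) to 2.03 (0.70 to 3.15), with 20 of 22 libraries of 26 weeks below the younger median, a difference of -0.73 ± 0.15 (limma, adjusted p = 0.000251). Acta2 fell from 4.78 (3.99 to 5.68) to 4.03 (2.90 to 5.43), and 11 of 22 libraries lay below every younger one, with a difference of -0.68 ± 0.18 (adjusted p = 0.00278). Tie1, an orphan receptor of the angiopoietin system, fell from 3.07 (2.48 to 3.74) to 2.44 (0.97 to 3.26), by 0.66 ± 0.12 (adjusted p = 8.22e-05), and 12 of 22 libraries lay below every younger one. The pericyte and smooth muscle receptor gene Notch3 fell by 0.56 ± 0.11, Tagln by 0.55 ± 0.12, Myh11 by 0.55 ± 0.16, Robo4 by 0.54 ± 0.15 and Ets1 by 0.53 ± 0.11. Pecam1 and Cdh5 fell by 0.51 ± 0.09 and 0.39 ± 0.12. Gpihbp1 (-0.16 ± 0.08) and Rgs5 (0.06 ± 0.08) were not called. Cspg4, fitted without the filter, fell by 0.34 ± 0.10 (adjusted p = 0.0122).

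The WT libraries of 26 weeks on ALF stood apart in depth and GC slope too. The GC slope was computed from the expression values of the kept genes, members included. They had the lowest median depth of any group, 19.5 M reads, and the lowest mean GC slope. With the GC and length slopes as covariates 19 members were called lower, 18 of them among the 29, and Cdh5 was then at -0.08 ± 0.09. The count was 19 as well without the mice numbered 2 or those numbered 3. Markers of other cell types were lower as well, 3 of 7 for fibroblasts, 2 of 6 for macrophages and lymphoid cells, 2 of 4 for tendon, with 1 higher, and 1 of 3 for Schwann cells and nerve. Their summed levels at 10 and 26 weeks had medians of 265 and 210, 54.7 and 45.3, 43.5 and 34.1, and 18.4 and 15.5 FPKM in that order. All 5 red blood cell markers were higher at 26 weeks with a median of 0.78, and their summed level ran from 19.4 to 223 FPKM at 10 weeks and from 89.7 to 475 at 26 weeks. The part of these measures in the fall was not tested.

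In KO mice fewer members passed over the same interval. At 26 weeks 13 members were lower, 10 endothelial and 3 mural, beside 25.3% of all genes called, 10.4% as lower, and the median difference was -0.23. Cldn5 fell from 3.68 (3.26 to 4.96) to 3.19 (2.44 to 4.36), by 0.53 ± 0.13 (limma, adjusted p = 0.00161), and 14 of 24 libraries lay below every younger one. Notch3 fell by 0.50 ± 0.13, Pdgfrb by 0.48 ± 0.11, Sox7 by 0.42 ± 0.14, Ets1 by 0.37 ± 0.11, Tie1 by 0.33 ± 0.09, Robo4 by 0.32 ± 0.11 and the VE-PTP phosphatase gene Ptprb by 0.28 ± 0.09. Rgs5 fell by 0.25 ± 0.07. Kdr (-0.18 ± 0.15), Cdh5 (-0.23 ± 0.12), Pecam1 (-0.12 ± 0.09), Gpihbp1 (0.20 ± 0.10) and Acta2 (-0.05 ± 0.12) were not called. Of the markers of other cells, 4 of 7 for fibroblasts and 2 of 3 for Schwann cells and nerve were lower too, and none of 4 for tendon was called. Their summed levels at 10 and 26 weeks had medians of 179 and 94.4, 21.5 and 14.5, and 47.6 and 32.3 FPKM. The part of cell makeup in this fall was not tested. The difference between the genotypes in the fall is the age contrast of the knockout effect given above, which called 6 members. The count was 3 without the mice numbered 4 and 4 without those numbered 3, while the GC covariate raised it to 20.

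Old mice differed from WT mice of 26 weeks in 10 members, 8 higher and 2 lower, beside 24.2% of all genes called, 12.9% as higher and 11.2% as lower. The contractile genes Acta2 (0.48 ± 0.17) and Myh11 (0.46 ± 0.15) were higher, with 22 and 23 of 24 old libraries above the median at 26 weeks. The secreted endothelial factor gene Egfl7 was higher by 0.42 ± 0.12, Robo4 by 0.38 ± 0.14, Esam by 0.32 ± 0.11, Vwf by 0.31 ± 0.11, Aqp1 by 0.31 ± 0.10 and Gpihbp1 by 0.30 ± 0.09. Cldn5 was lower, at 1.14, 2.43 and 3.37 in old mice against 1.72, 2.81 and 3.91, a difference of -0.36 ± 0.13 (limma, adjusted p = 0.0422), and Rgs5 was lower by 0.27 ± 0.09. Cdh5 (-0.23 ± 0.15), Kdr (0.13 ± 0.16) and Pecam1 (0.06 ± 0.09) were not called. The median of 0.02 over the members was close to the 0.0091 of all genes. All 7 fibroblast markers kept were lower in old mice. Without the libraries of steep GC slope 3 members were called, without the mice numbered 3 none was, and without those numbered 1 or 2 the counts were 5 and 4.

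On time-restricted feeding the vascular genes of WT mice at 26 weeks were higher than on ALF when no library covariate was fitted. There 23 members were higher on TRF, 18 endothelial and 5 mural, and none was lower, beside 41% of all genes called, 20.9% as higher and 20.1% as lower. The median difference was 0.36, against 0.0061 over all genes, and the mural genes had a median of 0.64. The ALF mice are those of the age and knockout contrasts at 26 weeks.

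Robo4 spanned -0.03, 1.43 and 2.66 on ALF and 1.32, 2.17 and 2.79 on TRF, and 23 of 24 TRF libraries lay above the ALF median. The difference was 0.76 ± 0.13 (limma, adjusted p = 3.95e-05). Acta2 spanned 2.90, 4.03 and 5.43 on ALF and 3.57, 4.95 and 5.46 on TRF, a difference of 0.74 ± 0.16 (adjusted p = 0.000462) with 23 of 24 TRF libraries above the ALF median. Notch3 was higher by 0.71 ± 0.11, Egfl7 by 0.70 ± 0.11, Esam by 0.68 ± 0.11, Myh11 by 0.67 ± 0.14, Tie1 by 0.63 ± 0.12 and Pdgfrb by 0.62 ± 0.10. Kdr (0.52 ± 0.14), Gpihbp1 (0.41 ± 0.10), Pecam1 (0.37 ± 0.09) and Cdh5 (0.30 ± 0.12) passed as well, and Rgs5 did not (-0.14 ± 0.07).

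This result moved with the GC slope of the libraries, which averaged 0.09 in WT mice on TRF and -0.09 in those on ALF. With that slope as a covariate 5 members were called, namely Egfl7, Esam, Notch3, Pdgfrb and Robo4, and the median difference was 0.13. With the length slope added, Egfl7 and Gpihbp1 were called and the median was -0.0012. Egfl7 was at 0.32 ± 0.09 and 0.47 ± 0.10 in these fits, and Kdr at 0.11 ± 0.13 and -0.05 ± 0.15. The part of library composition in the feeding differences was not tested beyond these fits.

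**Figure D3:**
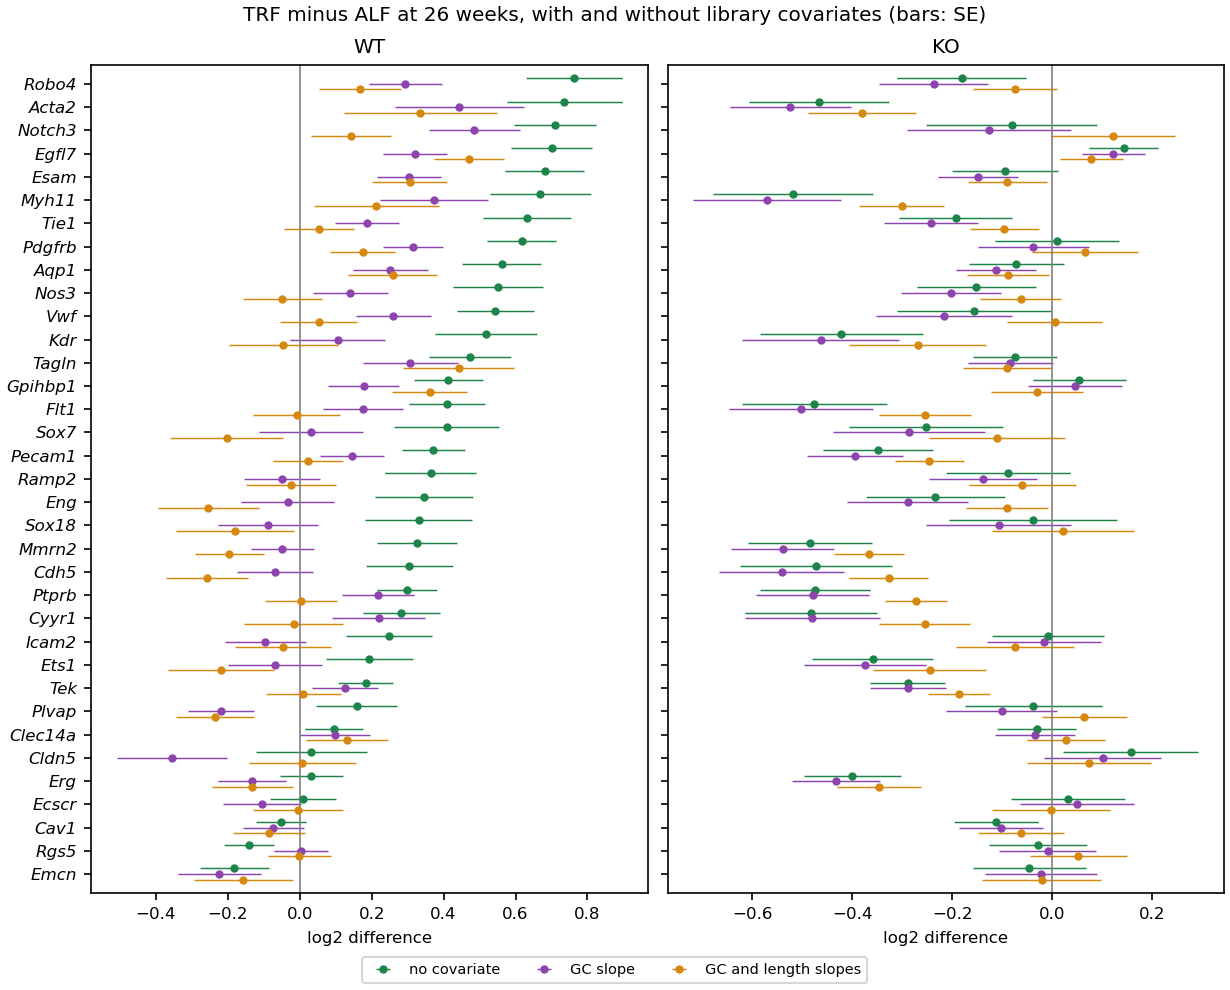
Difference between TRF and ALF at 26 weeks for each of the 35 members (x axes, log2, bars show SE) in WT and in KO mice, fitted without a library covariate (green), with the GC slope (purple) and with the GC and length slopes (orange) of each library. In these fits 23, 5 and 2 members were called in WT mice and 11, 12 and 10 in KO mice. The median over the members in WT mice is 0.36, 0.13 and -0.0012.

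KO mice moved the other way on TRF. In them 11 members were lower on TRF and none was higher, beside 14.2% of all genes called, 9.38% as lower and 4.78% as higher, with a median of -0.15. Myh11 fell by 0.52 ± 0.16, Mmrn2 by 0.48 ± 0.12, Cyyr1 by 0.48 ± 0.13, Flt1 by 0.48 ± 0.15, Ptprb by 0.47 ± 0.11, Cdh5 by 0.47 ± 0.15, Acta2 by 0.47 ± 0.14 and Erg, an ETS factor gene that maintains endothelial identity, by 0.40 ± 0.10. Pecam1 fell by 0.35 ± 0.11, from 3.95 (2.98 to 4.67) to 3.66 (2.62 to 4.26), with 20 of 23 TRF libraries below the ALF median. Kdr (-0.42 ± 0.16), Gpihbp1 (0.05 ± 0.09) and Rgs5 (-0.03 ± 0.10) were not called. With the GC covariate 12 members were called, all 11 among them, and with both covariates 10 of the 11, while the length covariate alone gave 5. Without the mice numbered 1, or those numbered 2, no member was called.

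Tested directly, the response to TRF was lower in KO than in WT mice for 25 members, 20 endothelial and 5 mural, beside 27.5% of all genes called, 16.6% as lower and 11% as higher. The median difference of the responses was -0.60. Acta2 (-1.20 ± 0.22) and Myh11 (-1.18 ± 0.22) led, followed by Kdr (-0.94 ± 0.22), Robo4 (-0.93 ± 0.19), Flt1 (-0.88 ± 0.18), Tie1 (-0.82 ± 0.17), Mmrn2 (-0.80 ± 0.17) and Notch3 (-0.79 ± 0.21). All 8 genes of the receptor class, Egfl7 included, were among the 25. With the GC slope as a covariate 19 were called, with the length slope 13, and with both slopes only Egfl7 and Esam. The length slope averaged -0.04 in KO mice on TRF and -0.0024 in those on ALF. The count was 13 without the mice numbered 1, and without those numbered 2 it was 16.

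Few members were called on TRF in Mu-RE mice or in old mice, and in old mice few of all genes passed. In Mu-RE mice 5 were lower on TRF, namely Ptprb (-0.39 ± 0.09), Cyyr1 (-0.35 ± 0.12), the sialomucin gene Emcn (-0.29 ± 0.09), Erg (-0.22 ± 0.07) and Rgs5 (-0.19 ± 0.06), beside 16.9% of all genes called, 7.87% as lower and 9.05% as higher. With the length covariate 1 was called and with the GC covariate 10. Without the mice numbered 1, 2 or 3 the count was 1, and without those numbered 4 it was 10. In old mice all 35 members had a positive difference with a median of 0.26, and 21 had an unadjusted p under 0.05, beside 17.4% of all genes. Only Pecam1 passed the adjusted threshold (0.34 ± 0.08, limma, adjusted p = 0.0476), where 0.142% of all genes did, 0.122% as higher and 0.0203% as lower, and it did not pass with the length or the GC covariate or without the mice numbered 1, 2 or 4, while 7 members passed without those numbered 3. Its values in old mice ran from 2.76 to 3.78 on ALF and from 3.19 to 4.29 on TRF, with 20 of 24 TRF libraries above the ALF median. No member was called in the test of the response in old against WT mice (limma), beside 2.1% of all genes called, 0.994% upward and 1.11% downward. At an unadjusted p under 0.05 there were 6 members in this test, for which no share of all genes is given.

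Some vascular genes of WT muscle followed the time of day. Rhythm was tested as a 24 h cosine curve in each group alone, and amplitude is the distance from the mean to the peak in log2 units. At 10 weeks 5 members were rhythmic, all endothelial, beside 5.84% of all genes. Cldn5 averaged 2.91, 3.19, 3.07, 1.65, 2.16 and 2.60 log2 FPKM at ZT0, 4, 8, 12, 16 and 20, with the trough at the onset of darkness. Its amplitude was 0.69 ± 0.13 with a fitted peak at ZT2.61, a 2.59-fold range from peak to trough (limma, adjusted p = 0.00747). Kdr averaged 3.45 at ZT0 and 1.94 at ZT12, with an amplitude of 0.56 ± 0.14 and a peak at ZT1.35. Ets1 peaked at ZT1.43 (0.46 ± 0.10) and Erg at ZT6.37 (0.24 ± 0.05), while Aqp1 peaked later, at ZT9.42 (0.29 ± 0.06). When the mice of any 1 number were left out 1 or 2 members were called, and the GC covariate gave 9.

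**Figure D4:**
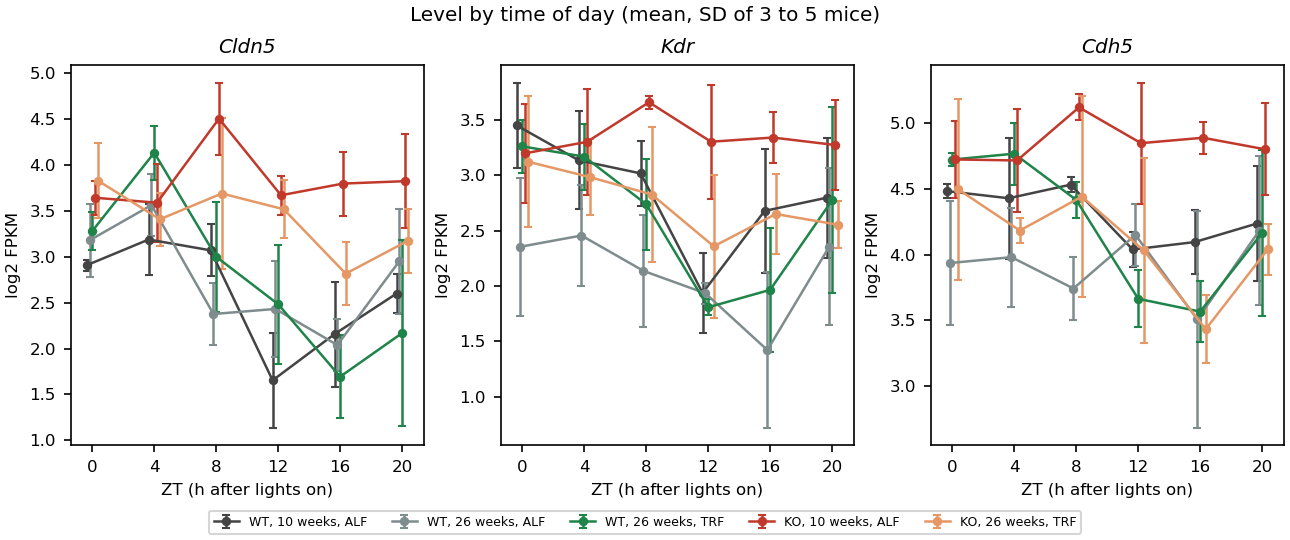
Mean level of Cldn5, Kdr and Cdh5 (y axes, log2 FPKM, bars show SD over 3 to 5 mice) against zeitgeber time in 3 WT groups and 2 KO groups. The WT curves of Cldn5 drop between ZT4 and ZT16, from 4.14 to 1.69 in WT mice on TRF. The KO mice of 10 weeks stay between 3.59 and 4.51, and those of 26 weeks on TRF between 2.82 (ZT16) and 3.83 (ZT0).

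Cldn5 was called rhythmic in 4 groups, all wild type, and no other member was called in more than 2. In WT mice of 26 weeks on ALF it was the only member called, beside 1.04% of all genes, with an amplitude of 0.66 ± 0.12 and a peak at ZT2 (limma, adjusted p = 0.0143). It was not called there when the mice of any single number were left out. In old mice on TRF it was again the only one, beside 5.71% of all genes, with 0.72 ± 0.12 and a peak at ZT3.05 (adjusted p = 0.00223), and not without the mice numbered 4. With the GC covariate 6 members were called in that group. Cldn5 averaged 3.84 at ZT4 and 2.22 at ZT12 in those mice. In WT mice on TRF its amplitude was 1.09 ± 0.17 with a peak at ZT4.04, a 4.52-fold range (adjusted p = 0.000164). In KO mice of 10 and 26 weeks the amplitude was 0.17 ± 0.13 and 0.24 ± 0.13, and neither was called. The test of the difference in rhythm between KO and WT mice at 10 weeks did not pass (0.75 ± 0.18, adjusted p = 0.121), so a loss of the Cldn5 rhythm in KO mice was not shown at this threshold.

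WT mice on TRF had the most rhythmic members of the 15 groups. There 24 members were rhythmic, 20 endothelial and 4 mural, beside 37.8% of all genes. Of the 5 rhythmic at 10 weeks 4 were among them (80%, and 16.7% of the 24). Kdr (0.77 ± 0.11, peak at ZT1.57), Cdh5 (0.66 ± 0.08, ZT2.53), Sox18 (0.59 ± 0.13, ZT0.677), Vwf (0.52 ± 0.08, ZT3.38) and Ets1 (0.51 ± 0.11, ZT0.85) followed Cldn5 in amplitude. Cdh5 averaged 4.72, 4.77, 4.42, 3.66, 3.57 and 4.16 over the day, and its lowest value at ZT0 (4.67) was above its highest at ZT12 (3.99).

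The endothelial mean of these mice fell from 2.78 at ZT0 and 2.81 at ZT4 to 2.23 at ZT12 and 2.27 at ZT16, and the GC slope of the same libraries fell from 0.25 and 0.22 to 0.03 and -0.05. With the GC covariate 17 members were rhythmic, 15 of them among the 24, and with both covariates 3 were, all among the 24. Without the mice numbered 3 the count was 15. The part of library composition in the daily pattern was not tested. The rhythm itself differed between TRF and ALF in WT mice for Flt1 (0.63 ± 0.15) and Vwf (0.61 ± 0.15), beside 3.92% of all genes (limma, adjusted p = 0.0298 and 0.0374), and for no member with the GC covariate or without the mice numbered 1 or 4. Without the mice numbered 2 the count was 6.

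Where the clock was restored to brain or muscle, a group had 6 or fewer rhythmic members. In WT mice 5 members were called at 10 weeks on ALF, Cldn5 alone at 26 weeks on ALF, and 24 at 26 weeks on TRF. Br-RE mice of 10 weeks had 6, beside 29% of all genes. Eng peaked at ZT19.3 (0.47 ± 0.13) and Vwf at ZT16.3 (0.32 ± 0.09), while Ecscr, an endothelial surface gene, Emcn, Cav1 and Rgs5 peaked between ZT2.29 and ZT5.02 with amplitudes of 0.30, 0.29, 0.23 and 0.21. This count was 0 with the length covariate and ranged from 0 to 16 when mice of a single number were left out. In Br-RE mice of 26 weeks only Aqp1 was called, beside 0.69% of all genes, at 0.37 ± 0.07 with a peak at ZT13.8, and no member was called without the mice numbered 1, 2 or 4. Mu-RE mice on TRF had 3, beside 6.97% of all genes, namely Ramp2 (0.47 ± 0.09, ZT9.58), which encodes a part of the adrenomedullin receptor, Gpihbp1 (0.43 ± 0.07, ZT10.3) and Emcn (0.35 ± 0.06, ZT23.7). Gpihbp1 averaged 3.41 at ZT0 and 4.24 at ZT12 in these mice. Between 0 and 6 members were called when mice of 1 number were left out.

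No member was called rhythmic in the other groups (limma). At an unadjusted p under 0.05 there were 0 in KO mice of 10 weeks, 0 in KO mice of 26 weeks and 5 in KO mice on TRF, 2 and 4 in Mu-RE mice of 10 and 26 weeks, 10 and 1 in RE-RE mice of 10 and 26 weeks, and 9 in old mice on ALF. At an adjusted p under 0.05, the shares of all genes called in these groups were 0.071%, 0%, 6.2%, 0.071%, 0%, 0.588%, 0.76% and 1.41% in the same order. These shares stand beside the absence of adjusted calls and not beside the unadjusted counts, for which no share of all genes is given. Rhythm differed in no member between KO and WT mice at either age, between Br-RE and KO mice at either age or between RE-RE and Br-RE mice at 10 weeks (limma, 0 calls each). At an unadjusted p under 0.05 there were 4, 2, 8, 3 and 5 members. The shares of all genes called were 0.517%, 0.172%, 0.913%, 0% and 0.152%. They are at the adjusted threshold as well and are no measure for the unadjusted counts.

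A list of 63 further vascular genes, of which 48 were kept, was read in the same fits. In KO against WT mice 14 were higher and 7 lower at 10 weeks, and 21 higher and 7 lower at 26 weeks. All genes tested were called in 41.8% and 46.3% of cases there, so the count at 10 weeks is close to that background. Among the Notch genes, which pattern arterial and tip cells, the ligand gene Dll4 was higher at both ages (0.59 ± 0.11 and 0.63 ± 0.15), while the target gene Hes1 was lower (-0.61 ± 0.13 and -0.80 ± 0.13) and the target gene Hey1 was higher at 26 weeks (0.72 ± 0.14). Car4, the carbonic anhydrase of the capillary surface, was higher by 0.72 ± 0.13 and 1.18 ± 0.13. The apelin receptor gene Aplnr was higher by 0.67 ± 0.17 at 10 weeks and the sphingosine phosphate receptor gene S1pr1 by 0.64 ± 0.16 at 26 weeks. Angptl4, an inhibitor of lipoprotein lipase that muscle fibres also make, was higher by 2.42 ± 0.45 at 10 weeks.

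These genes were read in the other comparisons as well. In Mu-RE against KO mice at 10 weeks 6 were higher and 15 lower, beside 34.6% of all genes called, among them Angptl4 (-1.48 ± 0.43), the endothelin receptor gene Ednrb (-0.60 ± 0.10) and the fatty acid carrier gene Cd36 (-0.32 ± 0.07). Between 10 and 26 weeks in WT mice 4 were higher and 21 lower, beside 37% of all genes, with Aplnr (-0.66 ± 0.13), Cd93 (-0.63 ± 0.12), Ednrb (-0.58 ± 0.13), the VEGF co-receptor gene Nrp2 (-0.56 ± 0.10) and Adgrf5 (-0.52 ± 0.11) the largest. On TRF 18 were higher and 4 lower in WT mice, so calls in both directions together were close to the 41% of all genes. Of all genes 20.9% were called as higher and 20.1% as lower. The largest were Car4 (0.81 ± 0.14), Dll4 (0.53 ± 0.13), Adgrf5 (0.52 ± 0.10), Gata2 (0.52 ± 0.12) and Mcam (0.48 ± 0.08). In KO mice on TRF 0 were higher and 9 lower, beside 14.2% of all genes, led by Cd93 (-0.48 ± 0.16) and Adgrf5 (-0.43 ± 0.12). These TRF values were fitted without a GC or length covariate.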

How the data were processed

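The submitters' processing notes name GRCm38 and, with no order, limma 3.44.1, edgeR 3.30.0, HISAT2 2.1.0, featureCounts 1.6.2, Trim Galore 0.5.0 and FastQC 0.11.8. The authors deposited log2 FPKM, into which 0.01 FPKM had been added, judged from the values, and this table was taken unchanged. A centring of the sexes and of the Br-RE and RE-RE libraries (equal means within 1e-05) is not described in the sources used here. Symbols and lengths came from GENCODE M21. Depth was inferred from steps between low values, of which a median of 94.3% per library lay within 0.1 of a whole read.

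Genes with a mean log2 of at least 0 were fitted with limma 3.58.1 (trend and robust options, R 4.3.3, the data.table package, version 1.17.8) as a level, cosine and sine of 24 h per group plus sex. Tests were two-sided and adjusted by Benjamini-Hochberg over 9862 genes, with calls under 0.05. On simulated data the script recovered 90% of level changes of 0.5 log2 in KO against WT mice at 10 weeks and 84% of rhythms of 0.5 amplitude in WT mice at 10 weeks. Tables and figures used Python 3.11.15, pandas 2.3.3, numpy 2.4.6 and matplotlib 3.10.9.

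The text names up to 8 called members of largest difference per comparison plus Pecam1, Cdh5, Kdr, Gpihbp1, Rgs5 and Acta2, up to 6 of largest amplitude per group, up to 5 wider vascular genes and the 10 genes most like the endothelial mean. Members and lists were chosen with earlier results of these data known. Mice are separate animals, and replicate numbers were not treated as pairs between groups. Alternatives were no filter, log2(FPKM + 1), median centring, no trend, a replicate block, a length covariate and leaving out each number. The number left out is the place of a mouse in label order within its group and time point. The replicate block used the label number itself. The GC covariates and the removal of 11 libraries of steep GC slope (beyond 0.35) were added after seeing the data.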

Additional observations from a re-analysis of the deposited data

Results flagged for a closer look

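The knockout effect on level differed between 10 and 26 weeks for 6 members, by a test of the difference itself (limma, adjusted p under 0.05). Of all genes 18.8% were called in this test, so the count says nothing particular about the members. The change in the effect, 26 minus 10 weeks, was -0.69 for Cldn5, 0.63 for Acta2, 0.46 for Tagln, 0.39 for Pecam1, 0.36 for Gpihbp1 and -0.32 for Rgs5. Between 0 and 3 members were called when the mice of 1 number were left out.

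The response of the 24 h mean to restricted feeding differed between KO and WT mice for 25 members, again by a test of the difference, beside 27.5% of all genes called. The difference of the responses was -1.20 for Acta2, -1.18 for Myh11, -0.94 for Kdr, -0.93 for Robo4, -0.88 for Flt1, -0.82 for Tie1, -0.80 for Mmrn2 and -0.79 for Notch3. The part of library GC and length slopes, which took this count to 2 as covariates, is given beside the result.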

How the results depend on the processing

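Counts of called members are out of 35. No named value changed sign under any alternative while called. With the GC slope as a covariate, RE-RE against Br-RE at 10 weeks gave 10, KO over age 20, old against WT 6, TRF in WT 5, in Mu-RE 10 and in old mice 0, and TRF in old against WT 1. Rhythm with it gave 9 in WT at 10 weeks, 3 in WT at 26 weeks, 3 in RE-RE at 10 weeks, 0 in Br-RE at 26 weeks, 1 in old on ALF and 6 on TRF, with 2 for KO against WT at 10 weeks, 1 for RE-RE against Br-RE and 0 for TRF against ALF. With GC and length slopes, Mu-RE against KO at 26 weeks gave 11, WT over age 19, TRF in WT 2, TRF in KO against WT 2 and in old against WT 2. Rhythm then gave 9 in WT at 10 weeks, 3 in WT at 26 weeks, 3 in WT on TRF, 0 in Br-RE and 3 in RE-RE at 10 weeks, 2 in old on ALF and 7 on TRF, with 3 for KO against WT at 10 weeks and 0 for TRF against ALF. With the length slope alone, Mu-RE against KO at 26 weeks gave 12, RE-RE against Br-RE 3 at 10 and 7 at 26 weeks, TRF in Mu-RE 1, in KO 5 and in old mice 0, TRF in KO against WT 13 and in old against WT 1. Rhythm gave 0 and 2 in Br-RE at 10 and 26 weeks, 3 in KO on TRF, 1 in old on ALF and 4 on TRF. Without libraries of steep GC slope, Mu-RE against KO at 26 weeks gave 5, old against WT 3, rhythm in RE-RE at 10 weeks 4 and TRF against ALF rhythm 10. With no filter, RE-RE against Br-RE at 10 weeks gave 3 and TRF in old mice 0. For rhythm in Br-RE at 26 weeks log2(FPKM + 1) gave 2 and median centring 3, and median centring gave 2 in old mice on TRF. The cause of these changes was not tested.

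With a replicate block, RE-RE against Br-RE at 10 weeks gave 3, KO against WT rhythm at 10 weeks 1 and TRF against ALF rhythm in WT 0, and the other 19 counts fitted with a block stayed within 1.5 times. Rhythm within a single group was not fitted with one. Same-number residuals had a median r of 0.068 over 289 pairs (-0.476 to 0.617), against -0.0047 over 6793 other pairs. An r over 0.1 was reached by 42.9% and 28.3% of them, so same-number mice were slightly more alike.

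Leaving out the mice of each number in turn gave 17 to 24 for KO against WT at 10 and 18 to 27 at 26 weeks, 8 to 22 and 0 to 9 for Mu-RE against KO, 2 to 8 and 0 to 3 for RE-RE against Br-RE, 19 to 29 for WT and 3 to 15 for KO over age, 0 to 9 for old against WT, and 18 to 22, 1 to 10, 0 to 12 and 0 to 7 for TRF in WT, in Mu-RE, in KO and in old mice. It gave 0 to 3 for the knockout effect by age, and 13 to 24 and 0 to 1 for the TRF response in KO and old against WT mice. Rhythm gave 1 to 2 in WT at 10 weeks, 0 to 16 and 0 to 1 in Br-RE at 10 and 26 weeks, 0 to 0 in WT at 26 weeks, 15 to 25 in WT, 0 to 6 in Mu-RE and 0 to 1 in old mice on TRF, 0 to 2 for KO against WT at 10 weeks and 0 to 6 for TRF against ALF, and 0 in the rest. Each number left out took up to 1 mouse from every time point of each group. Precision is limited by 22 to 25 mice per group and 3 to 5 per time point.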

Other observations

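Angpt1, the ligand that keeps the Tek receptor active and is made by mural and other cells around vessels, was higher in each of 4 comparisons of mice with and without Bmal1 in muscle fibres. It was higher in Mu-RE than in KO mice by 0.58 ± 0.09 at 10 weeks and 0.68 ± 0.09 at 26 weeks, and in RE-RE than in Br-RE mice by 0.66 ± 0.10 and 0.61 ± 0.12 (limma, adjusted p = 1.55e-06, 1.26e-08, 3.32e-07 and 6.04e-05). These 4 comparisons share no mice. The gene was lower in old than in WT mice of 26 weeks by 0.48 ± 0.12 and, in KO against WT mice, lower by 0.36 ± 0.11 at 26 weeks and by an uncalled 0.10 ± 0.09 at 10 weeks. It was higher by 0.48 ± 0.11 at 26 than at 10 weeks in WT mice, where 29 members fell.

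Vegfa, whose protein binds the receptors encoded by Kdr and Flt1, was lower in Mu-RE than in KO mice by 0.26 ± 0.05 and 0.22 ± 0.06 at 10 and 26 weeks and lower in RE-RE than in Br-RE mice by 0.33 ± 0.09 at 10 weeks, while at 26 weeks that difference was -0.07 ± 0.09 (limma, adjusted p = 0.577). In KO against WT mice it differed by 0.03 ± 0.08 at 10 weeks and was higher by 0.41 ± 0.07 at 26 weeks (adjusted p = 0.804 and 9.24e-06). Vegfa and some of these Angpt1 values fall outside the naming rule and were chosen after they were seen.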
